A study of Homo sapiens with 6 samples.

Results

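The genes described here are those of the unfolded protein response of the endoplasmic reticulum (ER) and of the ATF4 amino acid stress response, in human glioma cells. The list holds 43 genes, chosen by name. A gene was read from the probe sets whose platform annotation gives its symbol alone, and where several did, from the one with the highest mean over the 6 arrays. This gave a value for 42 of the 43 genes out of 19775 genes on the array, and all 42 passed the filter on dim genes. SYVN1, the ubiquitin ligase of ER-associated degradation, shares its probe set with a microRNA gene and has no value here.

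U87MG is an established glioblastoma cell line. U87MGL, labelled non-invasive, and U87MGR, labelled highly invasive, were both derived from it by 4 rounds of growth in the brains of nude mice and return to culture, so both carry the history of passage through a mouse and U87MG does not. All lines were kept in medium with 10% fetal bovine serum and 2 mM glutamine. Total RNA of 2 cultures a group was measured on 6 one-colour arrays. The labels call these biological replicates. In U87MGL and U87MGR replicate 1 is a line numbered 2 and replicate 2 a line numbered 3, so the spread within those groups may hold the difference between lines.

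The unfolded protein response answers to misfolded protein in the ER. Its sensors ATF6, IRE1 (ERN1) and PERK (EIF2AK3) raise chaperones and the machinery that clears misfolded proteins. The kinase PERK also slows translation by phosphorylating eIF2 alpha, as does the amino acid sensor GCN2, and both routes favour translation of the transcription factor ATF4. ATF4 raises enzymes that make amino acids, transporters that import them, and the regulators DDIT3 (CHOP) and TRIB3. In glioma cells these programmes are known to follow nutrient supply, hypoxia and secretory load.

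Promoter elements differed between the ER side of the list (chaperones and degradation genes) and the ATF4 side (regulators, enzymes and transporters). RefSeq windows of 250 bases before to 50 bases after a start (GRCh38.p14) were at hand for 40 of the 43 genes, and were searched on both strands. The ER stress element ERSE, which is CCAAT, then 9 bases of any kind, then CCACG, the letters known to bind NF-Y and ATF6, was found in 7 of these 40 genes (17.5%), against 25 of 27305 genes with a window (0.0916%). The shorter ERSE-II, which is ATTGG, any base and CCACG, was found in 3 of the 40, namely HYOU1, SDF2L1 and HERPUD1, against 19 of all genes (0.0696%). No gene of the ATF4 side had a match to either. The ERSE matches follow in the orientation of the motif, with its fixed letters in capitals, because 6 of the 13 chaperones with a window share this element.
HSPA5, chr9:125241391-125241409: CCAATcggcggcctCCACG
HSP90B1, chr12:103930216-103930234: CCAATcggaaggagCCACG
HSP90B1, chr12:103930321-103930339: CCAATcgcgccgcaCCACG
PDIA6, chr2:10812853-10812871: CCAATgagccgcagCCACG
CALR, chr19:12938384-12938402: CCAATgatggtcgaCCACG
CANX, chr5:179698778-179698796: CCAATcttcacactCCACG
CRELD2, chr22:49918554-49918572: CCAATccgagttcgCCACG
XBP1, chr22:28800603-28800621: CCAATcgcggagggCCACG

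The composite element that ATF4 and C/EBP factors are known to bind, searched as TGATGNAAN, was found in 7 of the 40 genes (17.5%) and in 4.45% of all genes. The 7 were ASNS, ATF3, CHAC1, CEBPG, SLC3A2, SLC7A1 and HERPUD1. None of the 13 ER chaperones with a window had it. The matches of 3 ATF4-side genes and of HERPUD1 are shown to set beside the ER elements, with the fixed letters in capitals.
ASNS, chr7:97872468-97872476: TGATGaAAc
CHAC1, chr15:40953261-40953269: TGATGcAAc
CEBPG, chr19:33374071-33374079: TGATGcAAc
HERPUD1, chr16:56931965-56931973: TGATGcAAc
The core of the UPRE, TGACGTGG, was found in HYOU1 alone (0.927% of all genes), where it overlaps an ERSE-II, and the cyclic AMP element TGACGTCA in PPP1R15A alone (2.25% of all genes). DDIT3 and TRIB3 had no match to any element searched. A match is a run of letters in a window and was not tested for binding. The genes were chosen by name for these pathways, so their shares beside all genes describe the list and are not a test.

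The bases before the start of 3 genes are given whole, with matches in capitals. HSPA5 stands for the ER side and ASNS for the ATF4 side. HERPUD1, whose arrays did not overlap between the invasive and the non-invasive line, is the 1 gene with both an ER element (ERSE-II) and an ATF4 element.
HSPA5 promoter, chr9:125241344-125241593, minus strand: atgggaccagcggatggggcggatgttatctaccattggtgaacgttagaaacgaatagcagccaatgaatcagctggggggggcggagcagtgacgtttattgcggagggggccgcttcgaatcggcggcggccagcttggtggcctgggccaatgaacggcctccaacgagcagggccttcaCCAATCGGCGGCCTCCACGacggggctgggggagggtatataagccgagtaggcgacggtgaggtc
HERPUD1 promoter, chr16:56931892-56932141, plus strand: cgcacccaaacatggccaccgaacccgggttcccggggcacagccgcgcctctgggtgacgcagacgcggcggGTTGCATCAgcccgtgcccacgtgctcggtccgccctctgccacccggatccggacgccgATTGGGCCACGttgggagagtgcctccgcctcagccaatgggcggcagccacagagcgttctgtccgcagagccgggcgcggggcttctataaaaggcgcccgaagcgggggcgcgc
ASNS promoter, chr7:97872409-97872658, minus strand: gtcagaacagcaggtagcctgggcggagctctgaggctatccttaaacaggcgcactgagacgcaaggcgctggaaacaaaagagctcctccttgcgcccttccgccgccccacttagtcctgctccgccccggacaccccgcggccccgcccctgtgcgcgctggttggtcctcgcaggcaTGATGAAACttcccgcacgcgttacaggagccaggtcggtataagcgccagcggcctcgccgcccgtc

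Array medians lay between 5.29 and 5.35 (log2 signal). Precision is limited by how few arrays there are. The replicates of U87MG differed most, with an SD of the difference over genes of 0.45, against 0.34 in U87MGR and 0.28 in U87MGL. The signals of spiked-in control RNA, which does not come from the cells, put the arrays in 3 sets, taken here as batches. Both U87MGL arrays lay with U87MGR replicate 1, U87MG replicate 1 with U87MGR replicate 2, and U87MG replicate 2 alone. With 2 batches, U87MG replicate 2 joins U87MG replicate 1 and U87MGR replicate 2. No batch holds both U87MG and U87MGL, so batch and group cannot be told apart there. Fits with batches as a block compare these groups only through the U87MGR arrays. RNA quality shows in the 3′ minus 5′ difference of control genes. For GAPDH it ran from 0.03 to 0.07 but for U87MGR replicate 2 (0.24); that of actin was -0.01 in U87MG replicate 1 and 0.22 to 0.39 elsewhere. Of the glioma markers, VIM (14.3 to 14.5) and CD44 (13.0 to 13.3) were bright in every array, whereas GFAP was at 5.21 to 5.45 and S100B and AQP4 lay below the filter of 4.73 for dim genes. CHI3L1, of the same list, was at 13.35 and 13.32 in U87MG, 9.83 and 8.58 in U87MGL and 10.46 and 10.10 in U87MGR. It was called lower in both derivatives (log2 -4.13 and -3.055, limma adjusted p = 0.00796 and 0.0185). The call in U87MGL was lost with 2 or 3 spike-in batches as a block. Of markers of cells that a line taken from brain could carry, 0 passed the limma test in any comparison (at most 2 of a list at an unadjusted p under 0.05). The brains were those of mice and the probe sets are annotated to human genes, so these markers are no direct test for carried cells. Below the filter were 5 of 12 of microglia and macrophages (P2RY12, PTPRC and TYROBP among them), 2 of 9 of endothelium (CDH5 and EMCN), 3 of 9 of neurons (NEFL, NEFM and STMN2) and 4 of 8 of oligodendrocytes (MOG and MOBP among them). The others lay above it, among them SNAP25 (9.21 to 9.73) and GAD1 (7.24 to 7.89) of neurons, CNP (9.70 to 10.05) of oligodendrocytes and CSF1R (7.31 to 7.85) of microglia. The log2 signals of the measured markers summed, over the arrays of U87MG, U87MGL and U87MGR in that order, to 61.7 to 62.3, 58.9 to 59.4 and 59.3 to 60.5 for microglia; to 47.3 to 49.0, 45.5 to 46.2 and 47.3 to 47.5 for endothelium; to 53.6 to 54.3, 53.3 to 53.3 and 53.8 to 55.2 for neurons; and to 45.0 to 45.5, 43.8 to 44.2 and 44.9 to 45.5 for oligodendrocytes. Their part in the results was not tested.

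Against the parental line, the clearest change was at the end of the PERK and ATF4 route. DDIT3, the stress transcription factor CHOP, fell in both derivatives, and TRIB3, the pseudokinase it induces, fell in U87MGR. Both U87MG arrays lay above every derivative array for these genes and for ATF4 itself. Of all genes tested, 28.3% lay lower without overlap in U87MGL and 24.2% in U87MGR. A gene was called where the adjusted p of limma (Benjamini-Hochberg over 14511 genes) was under 0.05. ATF4 was not called, and the calls of DDIT3 and TRIB3 were lost with spike-in batches as a block. In U87MGR against U87MG 2 of 42 genes were called, both lower, where 3.3% of all genes tested were called in either direction (1.86% higher and 1.44% lower). In U87MGL against U87MG 1 was called, also lower, where 4.82% of all genes were (3.02% higher and 1.8% lower). The counts themselves are near the background. Before adjustment, p under 0.05 was reached in U87MGR by 1 higher and 9 lower genes (11.0% and 9.79% of all genes) and in U87MGL by 4 higher and 5 lower (13.2% and 10.1%). The fold change was below 0 for 33 of the 42 in U87MGR (50.6% of all genes) and for 27 in U87MGL (51.9%). The comparisons share the U87MG arrays and are not separate evidence. In bulk RNA, fewer cells that make a transcript and less of it per cell cannot be told apart.

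**Figure D1:**
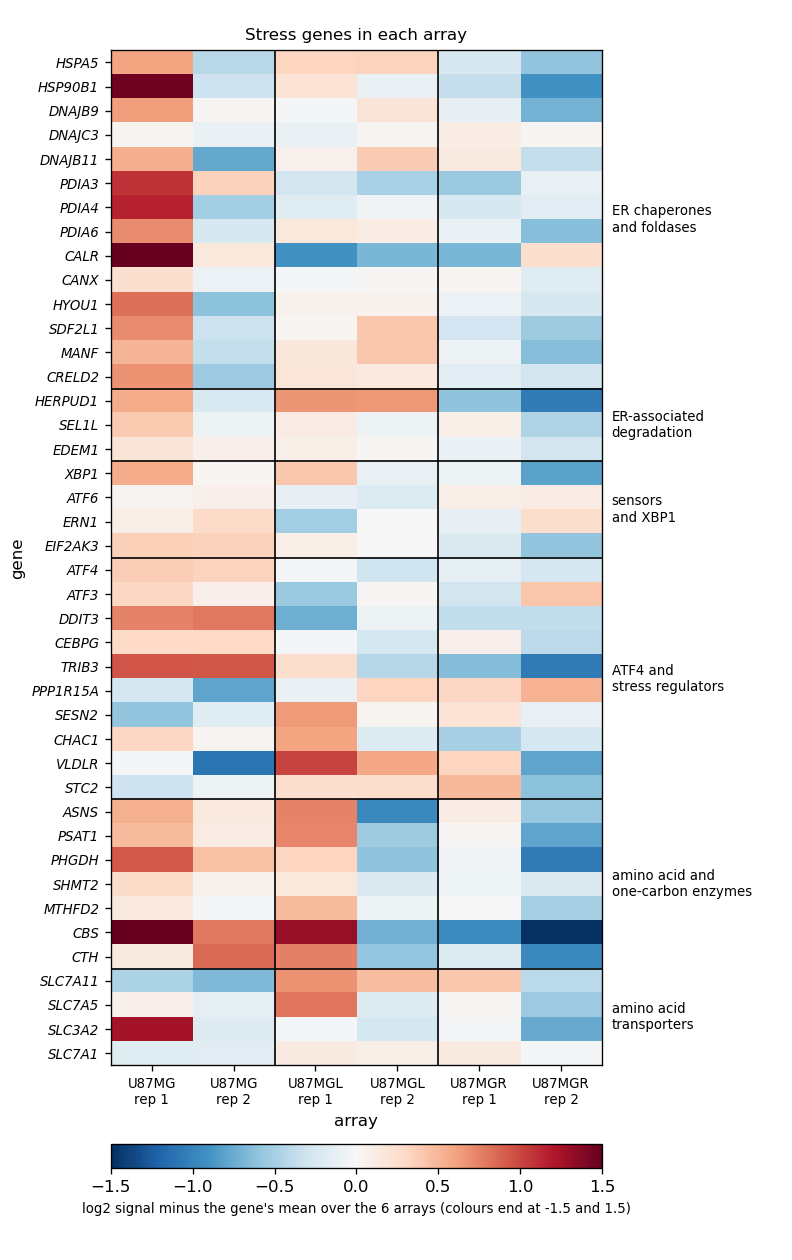
Log2 signal of the 42 measured genes in each of the 6 arrays, with each gene's mean over the 6 arrays taken away; rows are genes by role, columns are arrays, red is above and blue below the mean. The chaperone block is reddest in U87MG replicate 1, the enzyme block is blue in U87MGL replicate 2 and U87MGR replicate 2, and DDIT3 and TRIB3 are red in both U87MG arrays.

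ATF4, the transcription factor at the head of the route, had log2 signals of 12.52 and 12.48 in U87MG, 12.13 and 11.84 in U87MGL and 11.998 and 11.90 in U87MGR (replicates 1 and 2 in each case). The parental arrays were the highest and did not overlap with either derivative. The difference was -0.51 in U87MGL (SE 0.17, limma adjusted p = 0.128) and -0.55 in U87MGR (SE 0.17, limma adjusted p = 0.12), which did not pass. The derivatives differed from each other by -0.04, with a 95% interval of -0.43 to 0.35.

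DDIT3 was at 10.99 and 11.04 in U87MG, at 9.52 and 10.17 in U87MGL and at 9.88 and 9.88 in U87MGR. All 4 derivative arrays were lower than both parental ones. It fell 2.25-fold in U87MGL (log2 fold change -1.17, SE 0.23, limma adjusted p = 0.0371) and 2.20-fold in U87MGR (-1.14, SE 0.23, limma adjusted p = 0.0477). U87MGR and U87MGL differed by 0.03 (95% interval -0.50 to 0.57). The calls sit close to the threshold: that in U87MGL was lost without any one of the 6 arrays (limma adjusted p of 0.0507 to 0.151, changes of -0.847 to -1.499). That in U87MGR was lost without either U87MG or either U87MGR array (0.0659 to 0.228), while the change stayed at -1.11 to -1.17. Within the spike-in batch of U87MG replicate 1 and U87MGR replicate 2 the difference was -1.12; with spike-in batches as a block the limma adjusted p was 0.174 (2 batches) and 0.154 (3 batches) for U87MGR and 0.534 and 0.342 for U87MGL.

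TRIB3, which binds AKT and restrains ATF4 output, was highest in U87MG and lowest in U87MGR: 9.64 and 9.63 in U87MG, 8.96 and 8.27 in U87MGL, 8.05 and 7.64 in U87MGR. No array overlapped with those of the next group. It fell 3.47-fold in U87MGR (log2 fold change -1.80, SE 0.26, limma adjusted p = 0.0239). In U87MGL it differed by -1.02 (SE 0.26, limma adjusted p = 0.0738), and between the derivatives by -0.78 (limma adjusted p = 0.438), neither of which passed. The dimmer of its probe sets gave -1.76, -0.93 and -0.83 for the same differences. The call was lost without U87MG replicate 2 (limma adjusted p = 0.0576, change -1.80), U87MGR replicate 1 (0.103, -2.00) or U87MGR replicate 2 (0.166, -1.59). Within the spike-in batch it differed by -2.00; with batches as a block the limma adjusted p was 0.103 (2 batches) and 0.0717 (3 batches).

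**Figure D2:**
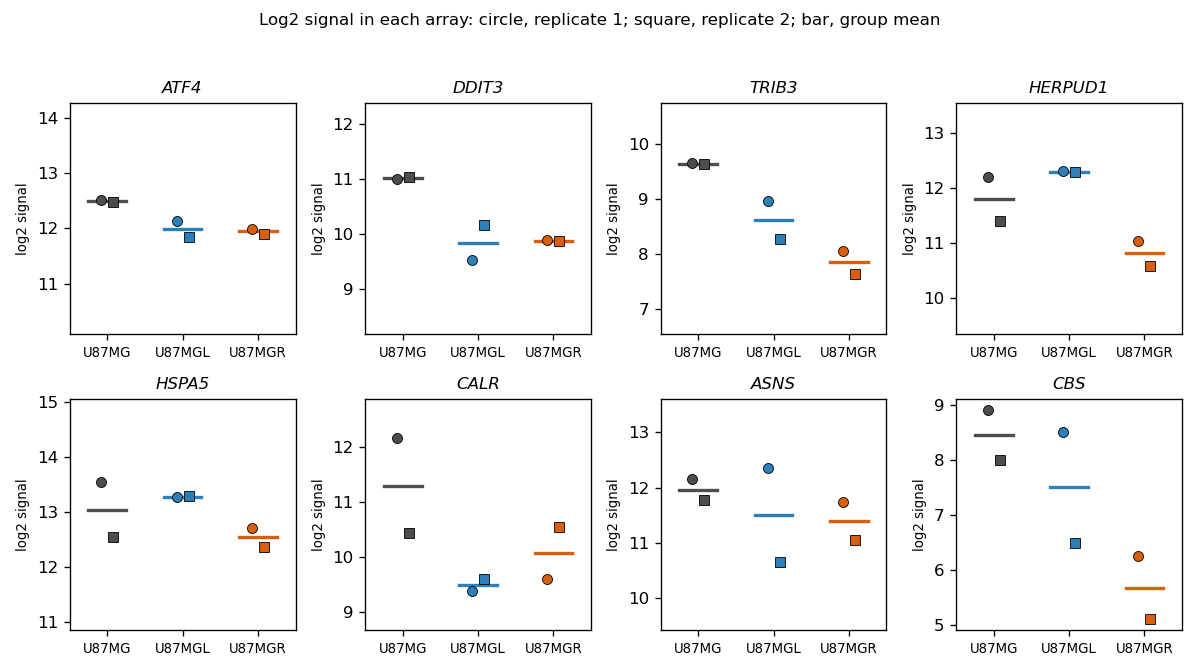
Log2 signal (y axis) of 8 stress genes in the 3 groups, with a circle for replicate 1, a square for replicate 2 and a bar for the group mean. ATF4, DDIT3 and TRIB3 are highest in both U87MG arrays, HERPUD1 is lowest in both U87MGR arrays, and ASNS and CBS lie far apart within U87MGL (12.36 and 10.65, 8.51 and 6.49).

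Not all regulators lay lower in the derivatives. Of the 10 genes of this group, 5 had U87MGL arrays below both U87MG arrays and 4 above, where 28.3% and 28.1% of all genes do so; in U87MGR the counts were 5 and 2 (24.2% of all genes in each direction). CEBPG, a C/EBP partner of ATF4, differed by -0.44 and -0.45 in U87MGL and U87MGR (limma adjusted p = 0.247 and 0.264). PPP1R15A (GADD34), which recruits a phosphatase to eIF2 alpha and so ends the translation block, lay the other way: 9.58 and 9.05 in U87MG, 9.74 and 10.17 in U87MGL, 10.15 and 10.37 in U87MGR. Every derivative array was above both parental arrays. The differences of 0.64 and 0.95 did not pass (limma adjusted p = 0.174 and 0.0814), although the second did without U87MG replicate 1 (change 1.21, adjusted p = 0.0436).

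SESN2, a stress-induced brake on mTORC1, was at 9.08 and 9.48 in U87MG, 10.31 and 9.71 in U87MGL and 9.87 and 9.55 in U87MGR, again lowest in the parental arrays. It differed by 0.73 in U87MGL and 0.43 in U87MGR (limma adjusted p = 0.153 and 0.387). VLDLR, a lipoprotein receptor, was at 9.44 and 8.36, 10.47 and 10.03, and 9.77 and 8.66 in the same order, so only U87MGL lay clear of U87MG. Its difference was 1.35 in U87MGL (limma adjusted p = 0.138) and 0.32 in U87MGR (0.735). With 2 and 3 spike-in batches as a block these became 0.24 and -0.30 in U87MGL and -0.24 and -0.78 in U87MGR, so no direction is given. ATF3, a stress transcription factor, was at 8.91 and 8.68, 8.05 and 8.63, and 8.32 and 9.02, with the derivative arrays spread across the parental ones in U87MGR. CHAC1, which degrades glutathione, and STC2, a secreted glycoprotein, differed by 0.03 and 0.45 in U87MGL and by -0.55 and 0.13 in U87MGR, and none of these passed (smallest limma adjusted p 0.302).

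The ER chaperones and foldases gave a different picture: they parted the replicates of the parental line more than they parted the lines. All 14 were higher in U87MG replicate 1 than in replicate 2, with a median log2 gap of 1.01. The gap was over 1 for 8 of the 14 (57.1%), where 3.57% of all genes tested had one that large in either direction. In U87MGL no chaperone differed by more than 0.5 between replicates, and in U87MGR 5 of 14 did (35.7%, against 12.1% of all genes). U87MG replicate 1 was also the array with the lowest actin 3′ minus 5′ difference (-0.01) and lies in another spike-in batch than replicate 2; the part of either in the gap was not tested.

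HSPA5 (BiP), the Hsp70 of the ER lumen and the usual readout of the response, was at 13.54 and 12.53 in U87MG, 13.26 and 13.28 in U87MGL and 12.71 and 12.36 in U87MGR. The parental replicates spanned almost the whole range, the U87MGL arrays were high and close together, and both U87MGR arrays lay below both of U87MGL. U87MGR differed from U87MGL by -0.74 (SE 0.32, 95% interval -1.49 to 0.01, limma adjusted p = 0.576) and from U87MG by -0.50 (adjusted p = 0.418). HSP90B1 (GRP94), the Hsp90 of the ER, was at 12.49 and 10.72, 11.23 and 10.93, and 10.69 and 10.12 in the same order. U87MG replicate 1 stood above every other array.

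CALR (calreticulin), a lectin chaperone of glycoproteins, was at 12.16 and 10.45 in U87MG, 9.39 and 9.61 in U87MGL and 9.61 and 10.55 in U87MGR. It had the largest difference of the list in U87MGL (-1.80, SE 0.54, limma adjusted p = 0.11). That difference depended on the parental array used: it was -0.95 without U87MG replicate 1 (adjusted p = 0.156) and -2.66 without replicate 2 (adjusted p = 0.0358). Its probe sets disagreed. The brightest set and another of its class, which can bind related transcripts, gave -1.80 and -1.97 in U87MGL, and the gene-specific set gave -0.33. Between U87MGR and U87MGL the same sets gave 0.58, 0.84 and -0.35. PDIA3 (ERp57), the disulfide isomerase that works with calreticulin, was at 12.81 and 12.08, 11.46 and 11.24, and 11.17 and 11.61. Here both parental arrays were above all derivative arrays, with differences of -1.10 in U87MGL and -1.06 in U87MGR (limma adjusted p = 0.0719 and 0.0879). Its other probe sets gave -0.27 and -0.00 in U87MGL and -0.86 and -0.62 in U87MGR.

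The other 10 chaperones and foldases differed by -0.44 to 0.33 in U87MGL and by -0.74 to 0.10 in U87MGR. Of all 14, 0 were called by limma, with 2 lower at an unadjusted p under 0.05 in each (10.1% of all genes in U87MGL and 9.79% in U87MGR). The extremes were PDIA4, a disulfide isomerase, and DNAJB11, a cochaperone of BiP, in the former, and DNAJB9 and DNAJC3, also BiP cochaperones, in the latter. Between them lay HYOU1, the nucleotide exchange factor of BiP, the cofactor SDF2L1, the secreted stress proteins MANF and CRELD2, the isomerase PDIA6 and the lectin CANX. The median of the 14 was -0.52 in U87MGR against U87MG and -0.07 in U87MGL against U87MG, beside -0.01 and -0.02 over all genes tested.

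**Figure D3:**
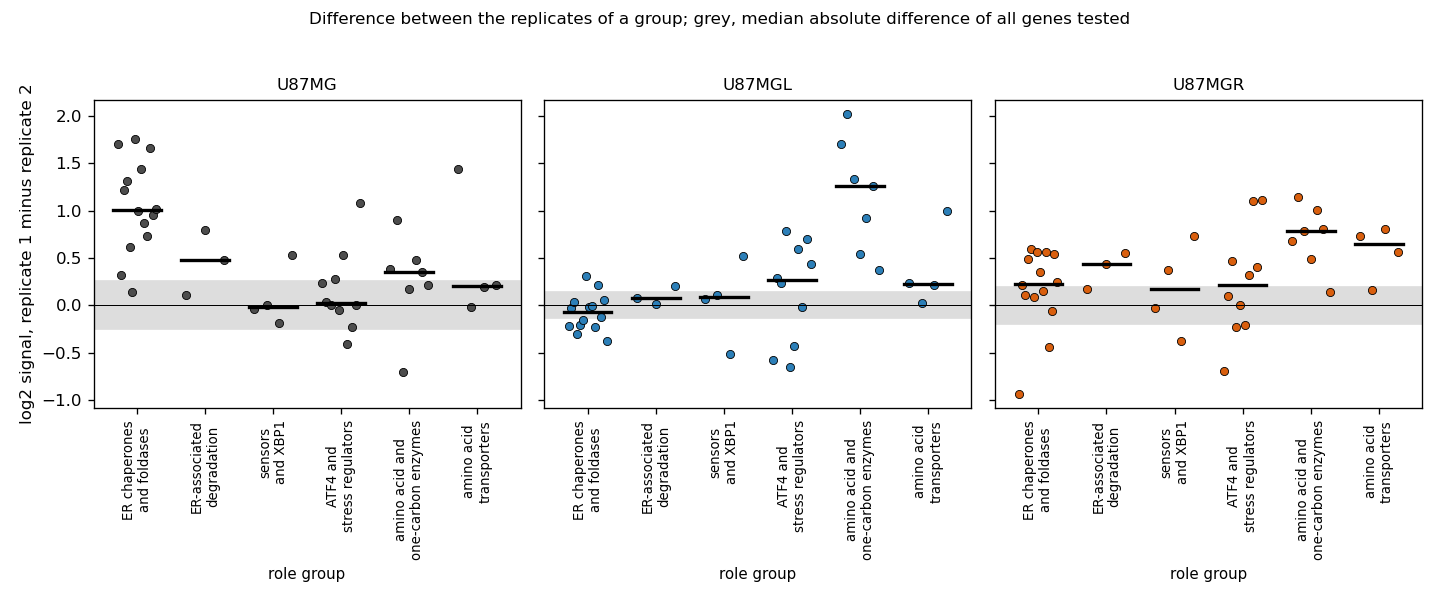
Log2 signal in replicate 1 minus replicate 2 (y axis) for each gene, by role group, in U87MG, U87MGL and U87MGR; points are genes, bars medians, and the grey band is the median absolute difference of all genes tested (0.25, 0.14 and 0.19). Chaperones lie near 1.01 in U87MG, and amino acid enzymes near 1.26 in U87MGL and 0.78 in U87MGR.

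Of the genes of ER-associated degradation, HERPUD1 stood out. It encodes a membrane protein of the complex that passes misfolded proteins to the proteasome, and is induced through both arms of the response. Its signals were 12.19 and 11.40 in U87MG, 12.30 and 12.28 in U87MGL and 11.03 and 10.59 in U87MGR. U87MGL lay above and U87MGR below both parental arrays. The difference between U87MGR and U87MGL was -1.48, a 2.80-fold lower level (SE 0.28, 95% interval -2.15 to -0.82), with a limma adjusted p of 0.151 that did not pass. It was -1.26 within the spike-in batch that holds both lines, and -1.26 to -1.70 when 1 array of either line was left out. A second, dim probe set (4.46 and 4.49 in U87MGL and U87MGR) gave 0.03, and the mean of both probe sets -0.73. Against U87MG it differed by 0.49 in U87MGL (adjusted p = 0.334) and -0.99 in U87MGR (adjusted p = 0.106). The value in U87MGL became 0.05 and -0.34 with 2 and 3 spike-in batches as a block, 0.10 without U87MG replicate 2 and -0.01 as the mean of probe sets, so no direction is given for it. SEL1L, the adaptor of the degradation complex, and EDEM1, a lectin that extracts misfolded glycoproteins, differed by -0.34 and -0.33 in U87MGR and by -0.13 and -0.09 in U87MGL.

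Of the 3 sensors and XBP1, 0 were called by limma in any comparison (before adjustment, EIF2AK3 had p under 0.05 in U87MGR against both other groups). EIF2AK3, the kinase PERK, was at 9.54 and 9.54 in U87MG, 9.30 and 9.19 in U87MGL and 8.98 and 8.60 in U87MGR, with no overlap between any groups. The difference in U87MGR was -0.75 (SE 0.18, 95% interval -1.17 to -0.33, limma adjusted p = 0.0714). XBP1, whose mRNA is spliced by IRE1 and encodes a transcription factor of the chaperones, was at 10.03 and 9.50, 9.88 and 9.36, and 9.41 and 8.68. The U87MGR arrays were below both parental ones, with a difference of -0.73 (adjusted p = 0.246). The array does not tell spliced from unspliced XBP1. ERN1 (IRE1) was at 7.32 and 7.51, 6.71 and 7.23, and 7.11 and 7.49, and ATF6 at 9.81 and 9.85, 9.65 and 9.58, and 9.87 and 9.90. For ATF6, the membrane-bound transcription factor, the U87MGR arrays of this brightest probe set lay above and the U87MGL arrays below both parental ones, by 0.05 and -0.22 (limma adjusted p = 0.874 and 0.404). Its probe sets disagreed: the 3 dimmer ones gave 0.28, 1.32 and 0.24 in U87MGR and 0.57, 1.16 and 0.15 in U87MGL.

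The amino acid and one-carbon enzymes parted the replicates of the derivatives. All 7 were higher in replicate 1 than in replicate 2 in both U87MGL and U87MGR, by medians of 1.26 and 0.78. In U87MGL 4 of the 7 differed by over 1 (57.1%), against 0.999% of all genes tested, and in U87MGR 2 did (28.6%, against 1.38%). The chaperones of the same U87MGL arrays differed by a median of -0.08. U87MGR replicate 2 was also the array with the highest GAPDH 3′ minus 5′ difference (0.24). Both U87MGL arrays share a spike-in batch, and lie at 0.03 and 0.04 for GAPDH and at 0.39 and 0.28 for actin. In both derivatives replicate 1 is a line numbered 2 and replicate 2 a line numbered 3, so line and replicate cannot be told apart. The part of RNA quality, batch or line in these gaps was not tested.

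ASNS, which makes asparagine and is the classic target of ATF4, was at 12.15 and 11.77 in U87MG, 12.36 and 10.65 in U87MGL and 11.73 and 11.05 in U87MGR. The U87MGL replicates were the highest and the lowest of all 6 arrays. ASNS differed by -0.45 in U87MGL and -0.57 in U87MGR (SE 0.52, limma adjusted p = 0.647 and 0.584). PHGDH, the first enzyme of serine synthesis, was at 11.75 and 11.27, 11.15 and 10.23, and 10.79 and 9.78, with both parental arrays above all others. It differed by -0.82 in U87MGL and -1.23 in U87MGR (adjusted p = 0.282 and 0.155). PSAT1, the next enzyme of that route, was at 11.93 and 11.58, 12.18 and 10.92, and 11.47 and 10.66.

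CBS, which makes cystathionine from homocysteine and serine, had the largest difference of the list. It was at 8.90 and 7.996 in U87MG, 8.51 and 6.49 in U87MGL and 6.25 and 5.11 in U87MGR. Both U87MGR arrays were below the other 4. The level was 6.82-fold lower in U87MGR than in U87MG (log2 -2.77, SE 0.68, 95% interval -4.37 to -1.17, limma adjusted p = 0.0764). The result missed the threshold in the fit to all arrays, with 2 and 3 spike-in batches as a block (adjusted p = 0.163 and 0.115) and without any one U87MG or U87MGR array (0.113 to 0.342). It passed with the 4 arrays of these groups alone (adjusted p = 0.0421), where 0.841% of all genes were called lower, and with a replicate block (adjusted p = 0.0195). RefSeq lists CBSL, a near-identical copy, among the synonyms of CBS, and the probe sets may read both. Against U87MGL the difference was -1.82, but -0.81 and -2.83 without U87MGL replicate 1 and 2. The size depended on the probe set of CBS. The other sets gave -2.49 and -0.63 in U87MGR against U87MG, and -1.41 and -0.08 in U87MGR against U87MGL. The mean of all its probe sets gave -1.965 and -1.105 for these differences. CTH, which turns cystathionine into cysteine, was at 9.13 and 9.84, 9.75 and 8.41, and 8.80 and 8.02.

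The mitochondrial folate enzymes SHMT2 and MTHFD2 differed by -0.20 and 0.14 in U87MGL and by -0.31 and -0.31 in U87MGR. In U87MGR against U87MG all 7 enzymes had a fold change below 0 (median -0.69), and for 6 the arrays did not overlap, where 24.2% of all genes lay lower without overlap. In U87MGL against U87MG 6 of 7 were below 0 (median -0.41). The arrays of 1, PHGDH, did not overlap, where 28.3% of all genes lay lower without overlap. By limma 0 enzymes were called in either. At an unadjusted p under 0.05, 2 were lower in U87MGR and 0 in U87MGL (9.79% and 10.1% of all genes).

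SLC7A11 (xCT), which imports cystine in exchange for glutamate, was at 9.31 and 9.12 in U87MG, 10.45 and 10.24 in U87MGL and 10.18 and 9.38 in U87MGR. Every derivative array was above both parental arrays. The difference was 1.13 in U87MGL (SE 0.27, 95% interval 0.50 to 1.77, limma adjusted p = 0.0613) and 0.57 in U87MGR (adjusted p = 0.289). With 2 and 3 spike-in batches as a block it was 0.33 and 0.24 in U87MGL and 0.16 and 0.07 in U87MGR. Its other probe sets gave 0.88 and 0.49 in U87MGL. SLC3A2 (CD98), the heavy chain that SLC7A11 and SLC7A5 need at the membrane, was at 12.09 and 10.65, 10.81 and 10.57, and 10.83 and 10.09, with U87MG replicate 1 far above the rest as for the chaperones. SLC7A5 (LAT1), a carrier of large neutral amino acids, and SLC7A1, a carrier of arginine and lysine, differed by 0.34 and 0.28 in U87MGL and by -0.23 and 0.22 in U87MGR.

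**Figure D4:**
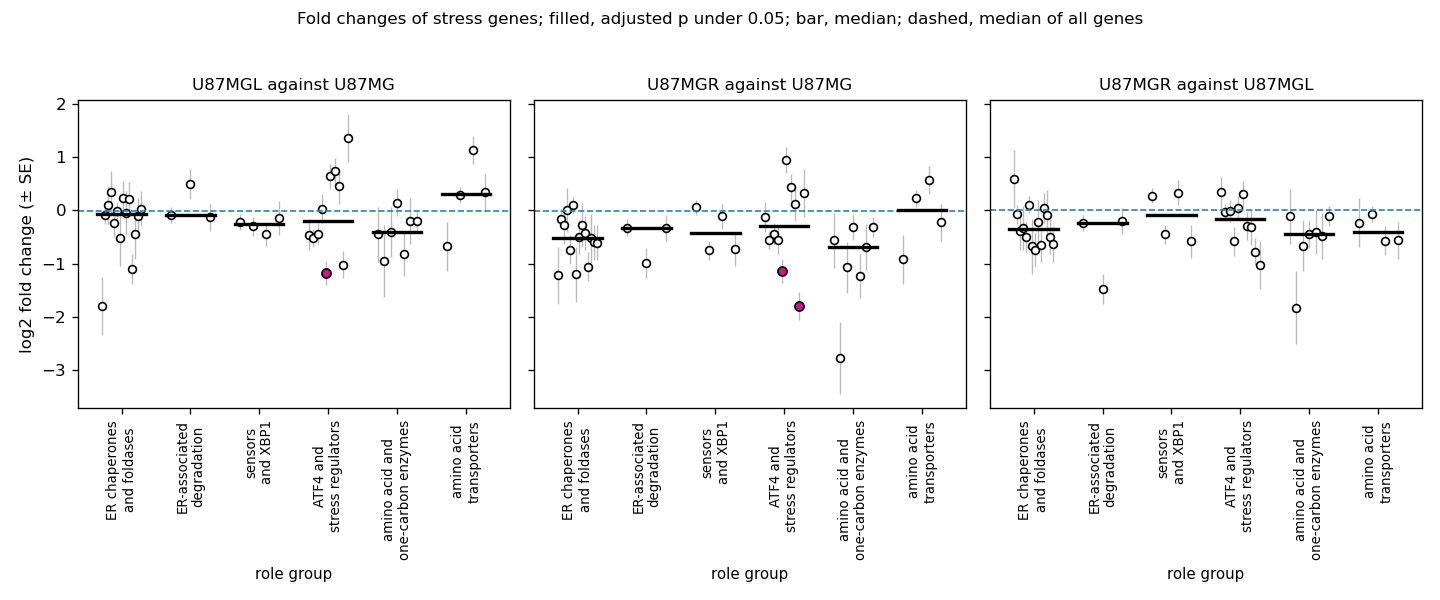
Log2 fold change (y axis, with SE) of each gene by role group in the 3 comparisons; open points did not pass, filled points had a limma adjusted p under 0.05, bars are group medians and the dashed line is the median of all genes tested. The filled points are DDIT3 (-1.17 and -1.14) and TRIB3 (-1.80), and no point is filled in U87MGR against U87MGL.

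Invasive against non-invasive cells gave no called gene. In U87MGR against U87MGL 0 of 42 passed in limma over all genes, where 23 of 14511 genes (0.159%) did, 0.0413% higher and 0.117% lower. Before adjustment, p under 0.05 was reached by 0 higher and 4 lower genes (3.9% and 4.94% of all genes). These 4 were HERPUD1, TRIB3, CBS and EIF2AK3. Still, 34 of the 42 genes (81.0%) had a fold change below 0, against 49.7% of all genes tested, with a median of -0.33 against 0.00. The arrays of 16 genes lay lower in U87MGR without overlap and those of 1, ATF6, higher (23.3% of all genes in each direction). Genes of 1 pathway are not independent observations.

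The ER side, the 17 measured chaperones and degradation genes, had a median of -0.33 in this comparison, and the ATF4 side, the 21 regulators, enzymes and transporters, of -0.32. Single arrays moved both. The ER side was at -0.18 without U87MGR replicate 2, which is also the value within the spike-in batch, and at -0.30 to -0.48 without any other U87MGR or U87MGL array. The ATF4 side was at -0.05 without U87MGL replicate 1, -0.04 without U87MGR replicate 2, -0.67 without U87MGL replicate 2 and -0.60 without U87MGR replicate 1; within the batch it was -0.04. Within that batch 13 of the 17 ER-side genes and 12 of the 21 ATF4-side genes were below 0, as were 7306 of 14511 genes.

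Against U87MG the medians of the 2 sides also rested on single arrays. In U87MGR the ER side was at -0.50, or -0.10 without U87MG replicate 1, -1.003 without U87MG replicate 2 and -0.33 without U87MGR replicate 2. The ATF4 side was at -0.45, or -0.22 without U87MG replicate 1 and -0.24 without U87MGR replicate 2. In U87MGL the ER side was at -0.08, and turned to 0.38 without U87MG replicate 1 and to -0.48 without replicate 2. The ATF4 side was at -0.20, and turned to 0.30 without U87MGL replicate 2; it was -0.38 without U87MGL replicate 1, -0.02 without U87MG replicate 1 and -0.30 without U87MG replicate 2.

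Which chaperones were called depended on the parental array used. Without U87MG replicate 2, limma called HSP90B1, PDIA3, PDIA4 and HERPUD1 lower in U87MGR and PDIA3, PDIA4 and CALR lower in U87MGL, where 1.05% and 1.08% of all genes were called lower. Without U87MG replicate 1 it called CRELD2 higher in U87MGL and, in U87MGR, TRIB3 lower and PPP1R15A higher; in that fit 6.09% of all genes were called higher in U87MGL, and 2.69% lower and 3.35% higher in U87MGR. Between U87MGR replicate 2 and U87MG replicate 1, the arrays of 1 spike-in batch, all 17 ER-side genes were lower, with a median of -1.18. The fit with 3 spike-in batches, which leaves out U87MG replicate 2, called HSP90B1, PDIA6, CALR, HERPUD1 and SLC3A2 lower in U87MGR, where 0.93% of all genes were.

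Genes with an ER element and genes with the ATF4 element can be set side by side. The 10 genes with an ERSE or ERSE-II were all higher in U87MG replicate 1 than in replicate 2, by a median of 1.01, and the 7 genes with the ATF4 element by a median of 0.28 (6 of 7 higher). The first set is mostly chaperones, and all 14 chaperones, with or without an element, were higher there by the same median of 1.01. Most of these chaperones belong to the first set, so the equal medians are partly built in. Of chaperones with a window but no element, the gap ran from 0.145 (DNAJC3) to 1.66 (PDIA4). Whether the gap goes with the element was not tested. Between the U87MGL replicates the median absolute differences were 0.04 and 0.24. In U87MGR against U87MGL 9 of the 10 and 6 of the 7 were below 0, with medians of -0.54 and -0.12. Within the spike-in batch that holds both lines 8 of the 10 and 3 of the 7 were, with medians of -0.28 and 0.02. HERPUD1 belongs to both sets.

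Wider lists of the same pathways were written from general knowledge. Of 43 tested genes of ER folding and secretion that are not in the list above, 0 were called by limma in U87MGR against U87MGL. Before adjustment 3 had p under 0.05, all lower (4.94% of all genes). Below 0 were 39 of 43 (90.7%, against 49.7% of all genes), with a median of -0.21. The largest values were those of ERO1A, the oxidase that drives disulfide formation (-0.63), and SEC24D, a coat protein of ER export (-0.63). In U87MGR against U87MG 1 rose and 0 fell (1.86% and 1.44% of all genes), and 1 and 8 did at an unadjusted p under 0.05 (11.0% and 9.79%). In U87MGL against U87MG 1 rose and 1 fell (3.02% and 1.8%), and 5 and 2 did before adjustment (13.2% and 10.1%). The gene that rose in each was CREB3L2, a membrane-bound transcription factor related to ATF6, by 1.95-fold (limma adjusted p = 0.0357 and 0.0285). ERO1B, a second oxidase, fell 1.99-fold in U87MGL (adjusted p = 0.0475). These calls were lost with 2 and 3 spike-in batches as a block (CREB3L2, adjusted p = 0.14 and 0.0889 in U87MGR and 0.584 and 0.304 in U87MGL; ERO1B, 0.316 and 0.142). That of CREB3L2 held in both comparisons without U87MG replicate 1 and was lost without any other array, and that of ERO1B was lost without any one array. Of the 43 genes, 34 were higher in U87MG replicate 1 than in replicate 2 (7719 of 14511 over all genes), by a median of 0.10, and 5 (11.6%) differed by over 0.5, against 21.6% of all genes and 12 of the 14 chaperones.

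Of 59 tested genes of the wider ATF4 and amino acid response, 0 rose in any comparison by limma. In U87MGR and U87MGL against U87MG 6 and 5 fell (1.44% and 1.8% of all genes), and between the derivatives 0 (0.117%). Before adjustment, p under 0.05 was reached in U87MGR by 1 higher and 15 lower (11.0% and 9.79% of all genes). In U87MGL it was reached by 2 and 12 (13.2% and 10.1%), and between the derivatives by 1 and 3 (3.9% and 4.94%). Those that fell most were BEX2 (4.26-fold and 5.48-fold lower in U87MGR and U87MGL, limma adjusted p = 0.0174 and 0.00796), CEBPD, a C/EBP transcription factor (4.39-fold in U87MGR, 0.0185), and IRS2, an adaptor of the insulin receptor (4.99-fold in U87MGL, 0.00599). With 2 or 3 spike-in batches as a block 0 of 14511 genes were called in U87MGL (649 higher and 587 lower, and 1110 and 1114, at an unadjusted p under 0.05), so these 5 calls were lost there. In U87MGR BEX2 was still called (adjusted p = 0.0445 and 0.0373) and CEBPD was not (0.109 and 0.0734). Without U87MGR replicate 2 the calls of both in U87MGR were lost (0.14 and 0.143), as was that of CEBPD without U87MGR replicate 1 (0.109) and that of BEX2 in U87MGL without U87MGL replicate 2 (0.0532). IRS2 was called without any one array (0.0127 to 0.0426). The median was -0.13 in U87MGR and -0.09 in U87MGL. Between the derivatives the largest differences were DDIT4, an inhibitor of mTORC1 (-1.47, adjusted p = 0.476), and INHBE, an inhibin subunit (-1.08, adjusted p = 0.536). Between the U87MGL replicates 44 of 59 were higher in replicate 1, with a median of 0.25.

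Heat shock genes of the cytosol and mitochondria, which answer to misfolded protein outside the ER, gave no call. Of 22 tested, 0 were called by limma in any comparison. Before adjustment, p under 0.05 was reached by 1 higher and 0 lower in U87MGR against U87MG (11.0% and 9.79% of all genes). In U87MGL against U87MG 3 and 2 reached it (13.2% and 10.1%), and between the derivatives 1 and 1 (3.9% and 4.94%). The medians of the 22 were 0.15, 0.10 and 0.05, and between the U87MG replicates 10 were higher in replicate 1 and 12 in replicate 2. DNAJB4, an Hsp40 cochaperone, had the largest difference, 1.05 in U87MGL against U87MG (adjusted p = 0.0569).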

How the data were processed

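Total RNA of 6 cultures, 2 each of U87MG, U87MGL and U87MGR, was hybridised to one-colour arrays of 54675 probe sets. The deposited values are log2 signals (2.38 to 14.6) and had been normalized by the authors, with a procedure not stated in any source used here. Of the probe sets 41097 carry 1 gene symbol, 1801 several and 11777 none, and symbols were updated through RefSeq (41043 matched). For each of 19775 genes the brightest probe set with 1 symbol was kept, and 14511 with a mean of at least 4.73 (the 40th percentile of probe sets) were tested. One limma model (limma 3.58.1, R 4.3.3) with a mean per group gave fold changes, standard errors and p-values, adjusted over all genes tested; the script was tested on simulated data. Batches were read from 42 spiked-in control probe sets. Alternatives were a replicate block, batch blocks, other filters, probe set means, quantile normalization, a variance trend, fewer arrays, and each array left out in turn, in which a lone array is assumed to vary like the other groups. Genes given with every array's value were those called, the 3 highest and 3 lowest in each comparison, and HSPA5, XBP1, ATF4, DDIT3 and ASNS; other genes shown with array values were chosen after their values were seen. The genes and lists were chosen with earlier results of these data known. With 2 cultures a group, p-values measure only the spread between these samples.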

Additional observations from a re-analysis of the deposited data

Results flagged for a closer look

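For 2 genes the derivatives lay on opposite sides of the parental line. HERPUD1 was above both U87MG arrays in U87MGL and below both in U87MGR, with a difference between the derivatives of -1.48 on the log2 scale (limma adjusted p = 0.151); 141 of 14511 genes (0.972%) had this pattern. The 0.49 of U87MGL above U87MG became 0.05 and -0.34 with 2 and 3 spike-in batches as a block and -0.01 as the mean of probe sets. ATF6 had the opposite one, as did 157 genes (1.08%), with a difference of 0.27 (limma adjusted p = 0.646); it holds for its brightest probe set, while the 3 others put U87MGL above U87MG (0.57, 1.16 and 0.15) and gave -0.30, 0.16 and 0.10 between the derivatives. That the derivatives moved opposite ways from the parental line was not tested.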

How the results depend on the processing

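Over 15 other fits and the within-batch values, 705 of 799 values of the 17 genes with array values kept their direction and side of the threshold or, within a batch, moved by less than the replicate spread; 22 calls were lost, 15 gained and 9 within-batch values moved. The other 48, from the fits, changed sign, and 0 of these were called on either side. Beside them 11 of 94 medians of the ER and ATF4 sides and 19 of 90 counts of calls moved. These tallies do not measure stability, because many of the values could not move. Other filters, the variance trend, a replicate block, the 4-array fit and leaving out an array of the third group keep the fold change. Some fits repeat others: with 2 batches, U87MGR against U87MG equals the fit without U87MGR replicate 1. Most values were also not called to begin with. Genes called lower numbered 0 in U87MGR and 0 in U87MGL against U87MG with 2 spike-in batches as a block (10 and 5 at an unadjusted p under 0.05), 5 and 0 with 3 batches, and 1 in U87MGR with no filter on dim genes; the count was 0 in U87MGL with only the 4 arrays compared. Over all genes, 0.956% were called lower in U87MGR with no filter, and 0.627% in U87MGL with the 4 arrays. The ER side was at -1.18 in U87MGR (3 batches, and within the batch) and -0.81 in U87MGL (3 batches). The ATF4 side in U87MGL was at -0.62 with 2 batches and -0.54 with 3. The cause was not tested. Over genes, the replicate differences of the groups correlated at -0.09, 0.11 and 0.01. Of the 42 listed genes, 35, 27 and 34 were higher in replicate 1 in U87MG, U87MGL and U87MGR. For the ATF4 side the counts were 16, 17 and 18 of 21, and for the ER side 17, 7 and 14 of 17. Whether the replicate numbers pair the samples was not tested. With a replicate block 2 genes were called higher in U87MGL (VLDLR and SLC7A11), where 2.55% of all genes were. In U87MGR 3 were called lower (TRIB3, PHGDH and CBS), where 1.21% of all genes were. With each array left out in turn, genes called lower ranged from 0 to 4 in U87MGR and 0 to 3 in U87MGL against U87MG, and genes called higher from 0 to 1 in both. The ER side ranged from -1.003 to -0.10 and from -0.48 to 0.38, and the ATF4 side from -0.55 to -0.22 and from -0.38 to 0.30. Between the derivatives calls stayed at 0 (0 higher and 1 to 10 lower at an unadjusted p under 0.05), the ER side ranged from -0.48 to -0.18 and the ATF4 side from -0.67 to -0.04. Signs changed with both 2 and 3 spike-in batches as a block, between the derivatives, for ASNS (0.225 in each), ATF3 (-0.014), ATF4 (0.011), PDIA3 (-0.179) and PHGDH (0.098). In U87MGR against U87MG they changed for ATF3 (0.225 and 0.108), ERN1 (0.078 and 0.173) and VLDLR (-0.238 and -0.777), and in U87MGL against U87MG for ATF3 (0.239 and 0.122) and HSPA5 (-0.12 and -0.621) with both, and with 3 batches for ERN1 (0.032), HERPUD1 (-0.343) and VLDLR (-0.301). With the mean of probe sets they changed for PDIA3 between the derivatives (-0.389), ERN1 in U87MGR (0.003) and HERPUD1 and HSPA5 in U87MGL (-0.01 and -0.089) against U87MG, and with quantile normalization for ATF4 between the derivatives (0.026). With each array left out, values that crossed 0 ranged, between the derivatives, from -0.968 to 0.737 for ASNS, -0.014 to 0.685 for ATF3, -0.185 to 0.105 for ATF4, -0.292 to 0.359 for DDIT3, -0.179 to 0.266 for PDIA3, -0.91 to 0.098 for PHGDH and -0.593 to 0.005 for SESN2. In U87MGR against U87MG they ranged from -0.473 to 0.225 for ATF3, -0.305 to 0.078 for ERN1 and -0.238 to 0.876 for VLDLR, and in U87MGL against U87MG from -1.303 to 0.402 for ASNS, -1.958 to 0.064 for CBS, -0.265 to 0.736 for HSPA5 and -0.411 to 0.119 for XBP1.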

Other observations

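Genes with several probe sets can be read more than once on the same arrays. Of 45 further probe sets of 25 genes, 39 had the sign of the brightest set in U87MGR against U87MG, 32 in U87MGL against U87MG and 35 between the derivatives. For HSPA5 a second set gave a larger difference between U87MGR and U87MGL (-1.13) and between U87MGR and U87MG (-1.54), and a negative one in U87MGL (-0.41, against 0.24 for the brightest set). For ATF3 a dim second set gave 0.69 between the derivatives, against 0.34 for the brightest.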
